A study of Mus musculus with 5 samples.

Results

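Levels of 10 genes that build, sever, bundle or line the cytoskeleton were followed across the myeloid cells of the brain: the actin gene Actb, the actin-binding genes Tmsb4x, Tmsb10, Pfn1, Cfl1, Coro1a, Lcp1, Cotl1 and Lsp1, and the intermediate filament gene Vim. They were chosen by name, with earlier results of these data known. They are 10 of the 17661 genes with at least 1 unique molecular identifier (UMI, 1 counted transcript molecule) in the 5 libraries. Recruited cells, as gated by monocyte and dendritic cell markers, carried more Vim, Lsp1 and Tmsb10 than microglia. Actb and Tmsb4x were among the 12 most abundant genes of every class, and the size of their difference between recruited cells and microglia depended on how the libraries were scaled.

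The libraries came from DM-hTAU mice, in which the natural tau promoter drives human tau with a pair of mutations and which serve as a model of tauopathy. Immune cells of the brain were sorted singly as CD45+ CD11b+ cells, CD45high CD11bhigh by the methods of the study, into plates for MARS-seq, which counts the 3′ ends of transcripts. All 5 libraries are labelled anti-PD-L1 (an antibody that blocks the PD-L1 checkpoint ligand), brain and 9 month. The study describes a sort from IgG2b-treated as well as anti-PD-L1-treated mice, but the labels give only the latter, so no comparison of treatments was made.

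Nothing in the labels ties a library to a mouse, so that the spread between libraries may be technical and p-values measure only that spread. The extraction text of the labels names thymus and small intestine, not brain, whereas microglial markers were abundant in the cells, as given below. Each plate had 384 wells, of which 4 were left empty, and the plates shared all 384 cell barcodes and were told apart by 5 pool barcodes. Libraries held from 128201 to 549824 UMIs. From 1900 wells with a cell, 825 cells with at least 500 UMIs were kept, from 68 to 314 per library, with a median of 1015 UMIs. The 20 empty wells held 320 UMIs in all, of which 4 were Actb, 1 was Cfl1 and 0 belonged to the other members.

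Actin filaments grow from monomers, which profilin feeds to growing ends and beta-thymosins hold in reserve. Cofilin severs old filaments, coronin and coactosin-like protein bind along them, and plastins bundle them, so that a myeloid cell can crawl, engulf particles and change shape. Vimentin forms a separate network of intermediate filaments and is widely used as a marker of migratory and mesenchymal cells.

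Cells were assigned to classes by 10 marker genes each, none of them a member. The gates took 265 cells as microglia (P2ry12, Tmem119, Sall1 and others), 104 as border macrophages (Mrc1, Pf4, Cbr2 and others), 127 as recruited monocytes or dendritic cells (Ccr2, Ly6c2, Cd209a and others) and 30 as neutrophils (S100a8, S100a9, Retnlg and others). The other 299 cells, 36.2% of those kept, met no gate. A gate is a range of marker level rather than a cell type: 11 microglia, 5 border macrophages and 12 recruited cells lay at the minimum of their gate, and 116, 69 and 57 ungated cells met the minimum of the 3 gates but not the rest of the rule. The microglial markers summed to 156 UMIs per 10000 UMIs in microglia, 29.8 in border macrophages and 9.66 in recruited cells. The recruited markers summed to 54.6 per 10000 in recruited cells, 3.09 in microglia and 59.0 in neutrophils. Their sum therefore did not part recruited cells from neutrophils. Chil3, Ly6c2 and Plbd1 were higher in neutrophils, at 32.4, 13.5 and 7.78 per 10000 against 1.17, 6.56 and 6.86 in recruited cells. The other genes of the list were higher in recruited cells, such as Ccr2 at 14.4 against 1.23 and Cd209a at 9.51 against 0.41. Microglia, border macrophages and recruited cells had medians of 1048, 959 and 1586 UMIs. Border macrophages came almost entirely from libraries 3 and 5, with 48 and 51 cells, and those were the 2 libraries in which the class could be measured. Recruited cells numbered 7, 11, 52, 6 and 51 in libraries 1 to 5.

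Neutrophil markers were found in the other classes too. The neutrophil list gave 573 UMIs in microglia, 16.7 per 10000 and up to 86.8 in 1 library, 115 in border macrophages, 9.54 per 10000, and 262 in recruited cells, 9.93 per 10000 and up to 61.1 in 1 library, against 3403 per 10000 in neutrophils. The lists of T or NK cells, B cells, astrocytes, oligodendrocytes, neurons, endothelial cells and erythrocytes each held at most 3.38 per 10000 in microglia, border macrophages and recruited cells. The T or NK cell list had 5 UMIs in microglia and 43 in recruited cells, the B cell list 100 and 63, and the endothelial list 116 and 51. Other programmes moved with the classes. The MHC class II list stood at 89.6 per 10000 in microglia, 275 in border macrophages and 397 in recruited cells, the genes of the mitochondrial genome at 836, 1177 and 1064, and a dissociation response list at 29.6, 42.2 and 21.8. Their part in the levels of the members was not tested.

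**Figure D1:**
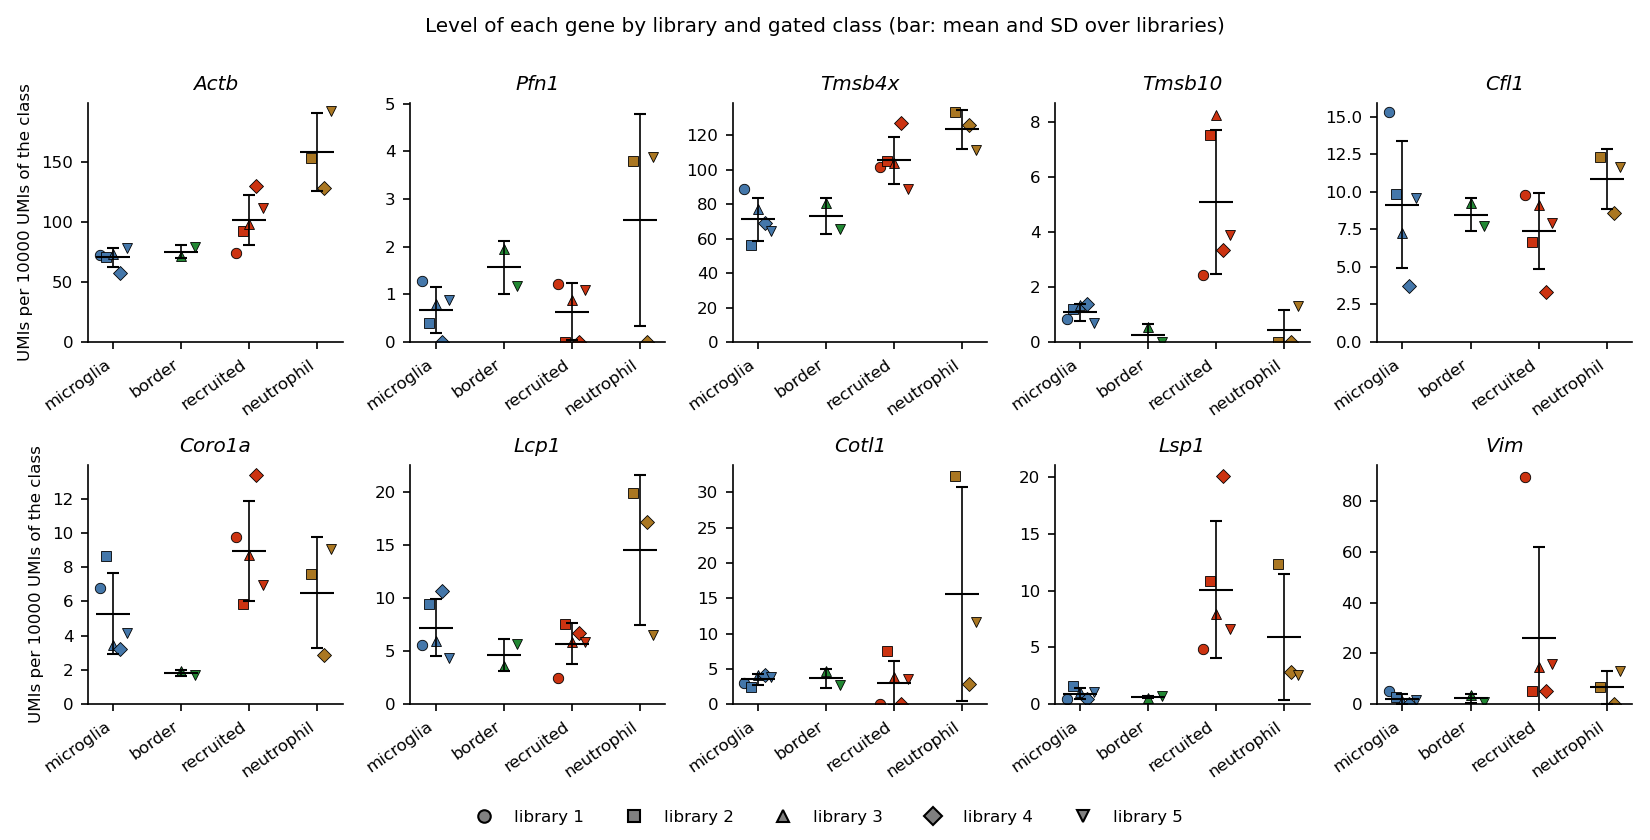
UMIs per 10000 UMIs (vertical axis, linear, separate for each gene) of the 10 genes in the class sums of at least 5 cells, by gated class. Each marker is a library and the bar is the mean with SD over libraries (microglia and recruited n = 5, border n = 2, neutrophil n = 3). Within each library Vim, Lsp1 and Tmsb10 lie higher in recruited cells than in microglia, with library 1 alone at 89.3 for Vim.

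Actb (chr5:142903115-142906754, minus strand, GRCm38) encodes beta-actin, the monomer of the filaments. In microglia its level was 72.8, 71.4, 73.4, 57.8 and 78.7 UMIs per 10000 in libraries 1 to 5, with a mean of 70.8 ± 7.80 (SD, n = 5). In recruited cells it was 74.6, 92.9, 98.3, 131 and 112, with a mean of 102 ± 21.1 (SD, n = 5). The recruited value was the higher one within each of the 5 libraries, although the 2 sets of values overlapped. Border macrophages held 71.7 and 79.2, inside or just above the range of microglia. The average cell held 9.65 Actb UMIs among microglia and 22.0 among recruited cells, against 4 in all of the 20 empty wells.

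Tmsb4x (chrX:167207093-167209315, minus strand) encodes thymosin beta-4, which holds actin monomers back from polymerization. Its level was 89.0, 56.4, 77.2, 69.4 and 64.3 per 10000 in microglia and 101, 105, 104, 127 and 89.1 in recruited cells. All 5 recruited values stood above all 5 microglial values, although the closest pair, 89.1 and 89.0, hardly differed. The mean rose from 71.2 ± 12.5 to 105 ± 13.8 (SD, n = 5 each), and border macrophages stood at 73.2 ± 10.7 (n = 2). Tmsb4x, Tmsb10 and Lsp1 were the members whose recruited and microglial values did not overlap, in the upward direction in which 11.2% of the 714 genes tested were free of overlap. For Tmsb10 and Lsp1 some of these values rested on few counts, as given below.

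The size of these last increases depended on scaling. In the edgeR fit, where trimmed means (TMM) set the scale, the log2 fold change of recruited minus microglia was 0.01 (SE 0.30) for Actb and 0.06 (SE 0.29) for Tmsb4x, with adjusted p = 0.978 and 0.908. An interval of 2 SE ran from -0.58 to 0.61 for Actb and from -0.53 to 0.64 for Tmsb4x. With plain library totals that left the members out and no TMM, the values were 0.52 and 0.58, and Tmsb4x passed the threshold (adjusted p = 0.0433) where Actb did not (adjusted p = 0.0772). That scaling moved the median of all genes by 0.47, from -0.03 to 0.44, and turned 91 higher and 164 lower genes into 207 higher and 118 lower. Relative to the median gene, the pair therefore shifted little under either of these scalings. With TMM kept, other settings moved the pair further from that median. At a minimum of 1000 UMIs per cell Actb and Tmsb4x were at 0.43 and 0.43 against a median of -0.10. With at least 10 cells per sum they were at 0.24 and 0.39 against -0.21, and with no filter at 0.31 and 0.36 against -0.26. With the gate minimum doubled they were at -0.28 and -0.085 against 0.01. None of these values passed the threshold. An exact sign-flip permutation test over 5 libraries, two-sided, cannot go below 0.0625, so that the counts of libraries are given without a p.

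Pfn1, the profilin gene, gave 27 UMIs in microglia, 19 in border macrophages and 25 in recruited cells. Its level was 0.67 ± 0.49, 1.57 ± 0.55 and 0.64 ± 0.60 per 10000. It did not pass the filter on low counts of the edgeR fit, so its values are given without a test. Border macrophages were higher than microglia in both of their libraries, with a ratio of pooled levels of 2.00. Reads that fit near-identical gene copies equally well may have been lost in counting, which the sources used here do not describe, so that absolute levels of Pfn1, Tmsb10 and Cfl1 are uncertain.

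Tmsb10 (chr6:72957347-72958748, minus strand) encodes thymosin beta-10, a close relative of Tmsb4x that also holds actin monomers. Microglia had 0.85, 1.18, 1.34, 1.39 and 0.69 UMIs per 10000 in libraries 1 to 5, and recruited cells 2.45, 7.53, 8.27, 3.35 and 3.91. Every recruited value was above every microglial one, with means of 5.10 ± 2.62 and 1.09 ± 0.31 (SD, n = 5). Counts were few: recruited cells of libraries 1 and 4 held 2 UMIs each. Microglia of libraries 1, 2 and 4 held 2, 3 and 3, so the lack of overlap is weak there. Border macrophages held 3 UMIs in all, in library 3, and 0 in library 5, which allows a level of up to 0.50. The log2 fold change of recruited minus microglia was 1.86 (SE 0.60, edgeR adjusted p = 0.0128). The call rested on the libraries with most recruited cells: without library 3 the change was 1.59 (adjusted p = 0.492) and without library 5 it was 1.55 (adjusted p = 0.473), with the direction unchanged.

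The 250 bases before the outermost RefSeq start (GRCm38.p6) are shown for Tmsb10 and Coro1a, which rose in recruited cells against border macrophages, and for Cfl1 and Tmsb4x, which did not pass the edgeR test there. RefSeq windows were matched for 7 of the 10 members, and there was no entry for Actb, Cotl1 and Lsp1. Windows of Vim, Lcp1 and Pfn1 overlapped exons and are not shown, and of Tmsb4x only the 153 bases outside exons are given. The Coro1a window lies within an intron of a longer transcript of the gene. Capitals mark matches, on either strand, to GGGCGG (the core of a GC box), to the CCAAT box, to the TATAAA motif, to GAGGAAGT (a core that PU.1 can bind) or to the CArG box.
Tmsb10, chr6:72958749-72958998, minus strand: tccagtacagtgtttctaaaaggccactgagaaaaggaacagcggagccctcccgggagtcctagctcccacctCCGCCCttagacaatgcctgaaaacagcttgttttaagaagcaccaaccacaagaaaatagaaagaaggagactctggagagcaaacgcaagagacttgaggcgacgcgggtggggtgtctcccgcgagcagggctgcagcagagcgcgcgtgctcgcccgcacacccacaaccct
Coro1a, chr7:126704817-126705066, minus strand: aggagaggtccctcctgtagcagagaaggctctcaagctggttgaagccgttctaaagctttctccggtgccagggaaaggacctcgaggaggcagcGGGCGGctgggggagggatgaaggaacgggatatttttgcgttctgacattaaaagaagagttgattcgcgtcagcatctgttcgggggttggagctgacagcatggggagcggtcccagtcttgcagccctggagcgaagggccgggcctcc
Cfl1, chr19:5490205-5490454, plus strand: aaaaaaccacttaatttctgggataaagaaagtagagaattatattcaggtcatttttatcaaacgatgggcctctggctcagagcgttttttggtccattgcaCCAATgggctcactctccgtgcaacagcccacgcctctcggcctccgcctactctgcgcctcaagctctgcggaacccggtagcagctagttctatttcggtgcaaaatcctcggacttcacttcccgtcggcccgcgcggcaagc
Tmsb4x, chrX:167209316-167209468, minus strand: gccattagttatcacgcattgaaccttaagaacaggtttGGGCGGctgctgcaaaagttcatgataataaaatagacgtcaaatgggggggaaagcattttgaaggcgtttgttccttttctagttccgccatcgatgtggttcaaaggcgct

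GGGCGG was found 1 time each in the windows of Tmsb10, Coro1a and Tmsb4x, and CCAAT 1 time in that of Cfl1. GGGCGG was present in 32.7% of all 32851 RefSeq windows of 250 bases and in 17.1% of those of 153 bases, and CCAAT in 33.8% of those of 250 bases. The TATAAA motif, present in 12.4% of windows of 250 bases, had no match in the windows shown, nor had GAGGAAGT and the CArG box, present in 2.44% and 1.47%. A match is a description of letters and not of a bound site.

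Cfl1, Lcp1 and Cotl1 were not called between recruited cells and microglia. Cfl1 was at a log2 fold change of -0.61 (SE 0.29, edgeR adjusted p = 0.0913) and lower in recruited cells in 4 of 5 libraries. Its size depended on scaling too, at -0.15 without TMM, and it ran from -0.83 to -0.04 over 16 alternatives. Cfl1 encodes cofilin, which severs filaments, and its level was 9.15 ± 4.25 per 10000 in microglia, 8.48 ± 1.08 in border macrophages and 7.38 ± 2.55 in recruited cells. The 3.70 to 15.3 range over microglia of the 5 libraries covered all other values of these classes except the 3.35 of recruited cells in library 4. Of the 36 Cfl1 UMIs of microglia in library 1, 21 were in 1 cell, without which its level was 7.04. Lcp1 encodes L-plastin, the filament bundler of leukocytes, and stood at 7.20 ± 2.70, 4.63 ± 1.52 and 5.68 ± 1.94. Cotl1 encodes coactosin-like protein, and stood at 3.51 ± 0.80, 3.65 ± 1.37 and 2.98 ± 3.14. In recruited cells of libraries 1 and 4 no Cotl1 was counted in 7 and 6 cells, which allows levels of up to 3.67 and 5.02 by a limit of 3 counts, and library 2 held 7.53.

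Coro1a (chr7:126699773-126707787, minus strand) encodes coronin-1A, which binds filaments in leukocytes. Its level was 6.81, 8.68, 3.47, 3.24 and 4.18 per 10000 in microglia, 9.78, 5.86, 8.71, 13.4 and 6.99 in recruited cells, and 1.96 and 1.68 in border macrophages. Recruited cells were higher than microglia in 4 of 5 libraries with overlapping values. Border macrophages were lower than microglia and than recruited cells in each of their 2 libraries. The log2 fold change was 0.36 (SE 0.33, edgeR adjusted p = 0.425) for recruited minus microglia. It was 1.60 (SE 0.50, adjusted p = 0.0183) for recruited minus border and -1.24 (SE 0.51, adjusted p = 0.204) for border minus microglia. Coro1a passed the threshold in recruited minus microglia when library 2 was left out, at 0.85 (adjusted p = 0.0473), at a minimum of 1000 UMIs per cell, at 0.90, and without TMM, at 0.83.

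Lsp1 (chr7:142460809-142494867, plus strand) encodes a leukocyte-specific protein that binds filaments. Microglia had 0.43, 1.58, 1.03, 0.46 and 1.03 UMIs per 10000, and recruited cells 4.89, 10.9, 7.95, 20.1 and 6.65. Even the lowest recruited library stood above the highest microglial one, although that lowest value was 4 UMIs and microglia of libraries 1 and 4 held 1 UMI each. The value of 20.1 in library 4 came from 6 cells, and 10 of its 12 UMIs were in 1 cell, without which it was 6.19. Means were 10.1 ± 6.01 and 0.90 ± 0.48 (SD, n = 5), and border macrophages stood at 0.60 ± 0.10 (n = 2). The log2 fold change of recruited minus microglia was 2.67 (SE 0.45, edgeR adjusted p = 7.22e-06), or 6.36-fold, and stayed between 2.12 and 3.10 over the 16 alternatives, past the threshold in all of them.

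Vim (chr2:13573927-13582826, plus strand) encodes vimentin. Microglia had 5.11, 2.76, 1.18, 0 and 1.51 UMIs per 10000 in libraries 1 to 5, and recruited cells 89.3, 5.02, 14.6, 5.02 and 15.8. The 0 of library 4 allows a level of up to 1.39. Vim was higher in recruited cells within each library. In libraries 2 and 4 the recruited values rested on 6 and 3 UMIs, and both lay below the 5.11 of microglia in library 1. The recruited value of library 1 stood far above the others. That value came from 73 UMIs in 7 cells, 41 of them in 1 cell, and was 56.7 without that cell. The remaining cells of the library still held more Vim than any other library. The log2 fold change of recruited minus microglia was 2.94 (SE 0.38, edgeR adjusted p = 3.72e-08), or 7.69-fold, and was past the threshold in all 16 alternatives, between 2.78 and 3.51. Border macrophages held 3.56 and 1.01 per 10000, within the range of microglia.

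**Figure D2:**
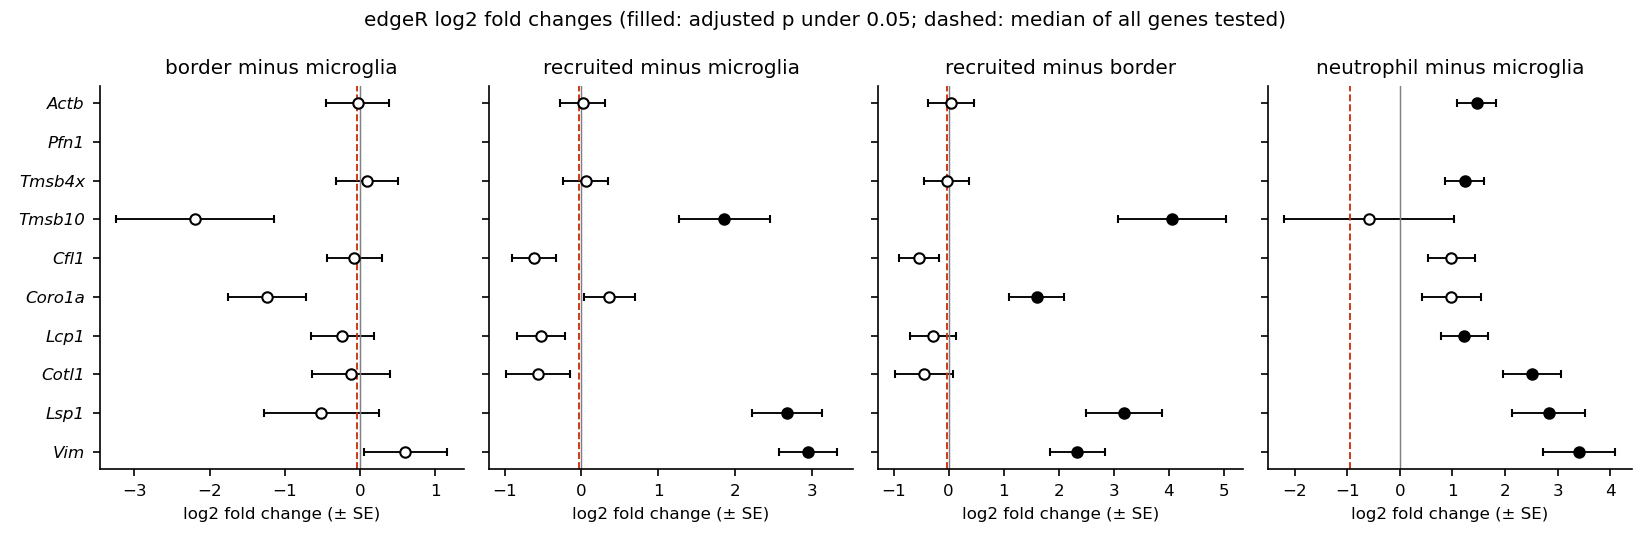
edgeR log2 fold change (horizontal axis) with its SE for the 9 members tested, in 4 comparisons of classes. Filled points passed an adjusted p of 0.05 and the dashed line is the median of all 714 genes tested, which lies at -0.95 in neutrophil minus microglia and within 0.05 of 0 in the others. Vim, Lsp1 and Tmsb10 are filled in recruited minus microglia, and no point is filled in border minus microglia.

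The study sorted these cells to describe macrophages that infiltrate the brain beside its microglia. Entry into the brain was not measured here and the classes rest on marker gates alone, and the study counted cells with Mrc1, Stab1 or Lyve1, which are genes of the border gate, among the infiltrating macrophages. Of 9 members tested, 3 were called higher (Vim, Lsp1 and Tmsb10) and 0 lower by edgeR, and 3 were called by DESeq2. At an unadjusted p under 0.05 there were 4, the other being Cfl1, which was lower. Of all genes tested, edgeR called 35.7%, with 12.7% higher, and DESeq2 called 37.7%. The median of the members was 0.06 and that of all genes -0.03 on the log2 scale. The members together made up 172 ± 18.2 UMIs per 10000 in microglia, 172 ± 9.15 in border macrophages and 274 ± 27.2 in recruited cells. The recruited sum of each library exceeded all microglial sums, the lowest being 249 against a highest of 200.2. Most of that sum was Actb and Tmsb4x, so it carried the same dependence on scaling.

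Against border macrophages, recruited cells were higher in 4 of 9 members and lower in 0, where 17.6% of all genes were called and 4.06% called higher. DESeq2 also called 4, and 15.7% of all genes. The log2 fold change was 4.05 (SE 0.99, edgeR adjusted p = 0.00211) for Tmsb10, 3.18 (SE 0.70, adjusted p = 0.000722) for Lsp1, 2.34 (SE 0.50, adjusted p = 0.000515) for Vim and 1.60 for Coro1a as above. The Tmsb10 value rests on 3 UMIs in border macrophages, so its size is not well fixed. The border class was measured in libraries 3 and 5 alone. Without library 5 the number of members called was 0, and without library 3 it was 1, Vim. Vim itself passed in the fit with the library as a block and not in the fit without that block, where it was 2.75 (adjusted p = 0.16).

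In border macrophages against microglia edgeR called 0 of 9 members, where 6.72% of all genes were called. At an unadjusted p under 0.05 there were 2, Coro1a at -1.24 and Tmsb10 at -2.20 (SE 1.05, adjusted p = 0.356), and DESeq2 called 0 where it called 5.18% of all genes. Intervals of 2 SE for Actb and Tmsb4x ran from -0.87 to 0.80 and from -0.73 to 0.92, so that changes of moderate size could have been missed with border cells of 2 libraries. These comparisons share the microglia, border and recruited sums in pairs and are not independent of each other.

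Depth differed between the classes, so each cell was thinned to 500 UMIs before cells with a UMI were counted. Vim was then seen in 40.2% of recruited cells (51 of 127), in 7.17% of microglia and in 7.69% of border macrophages. Before thinning, the shares were 62.2%, 12.8% and 15.4%. Tmsb10 was seen in 26.0%, 4.53% and 0.96% of thinned recruited, microglial and border cells, and Lsp1 in 24.4%, 4.91% and 3.85%. Coro1a followed with 27.6%, 16.2% and 7.69%. Actb and Tmsb4x were seen in 97.6% and 96.1% of recruited cells and 89.1% and 93.6% of microglia, which leaves little room for a difference of this kind. With the same thinning the edgeR fold changes of Vim, Lsp1 and Tmsb10 against microglia were 2.85, 2.12 and 1.81, past the threshold (largest adjusted p = 0.0383).

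**Figure D3:**
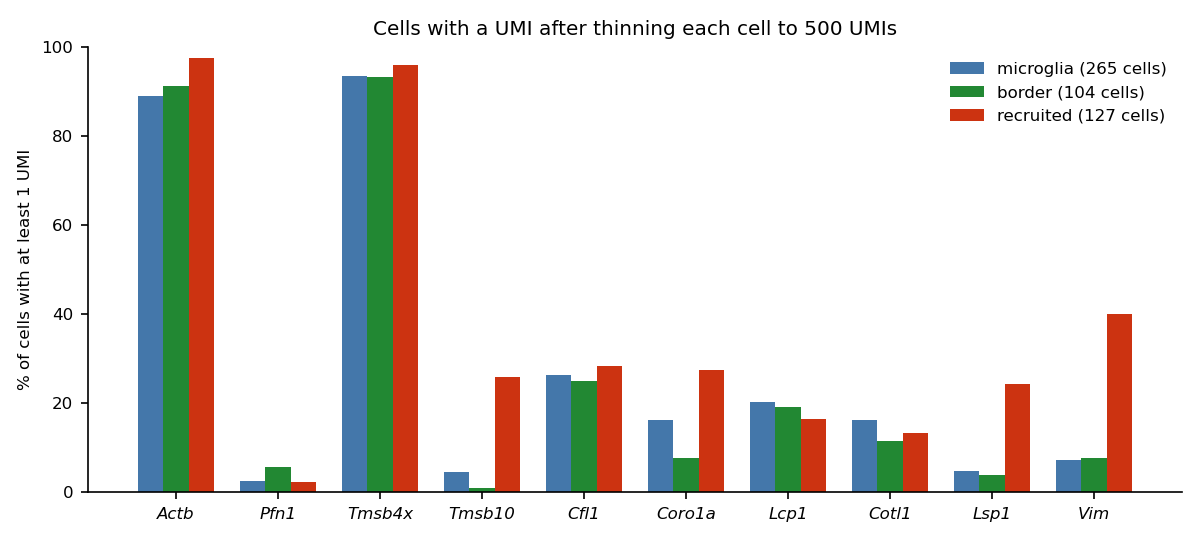
Share of cells (vertical axis, percent, from 0) with at least 1 UMI of each gene after every cell was thinned to 500 UMIs, for 265 microglia, 104 border macrophages and 127 recruited cells. Vim rises from 7.17% in microglia to 40.2% in recruited cells, while Actb and Tmsb4x are near the top of the axis in all 3 classes.

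Recruited cells were divided by whether their monocyte markers or their dendritic cell markers were the more abundant, which gave 69 cells on the monocyte side, 55 on the dendritic side and 3 ties. Ly6c2 was seen in 43.5% and 5.45% of cells of the 2 sides and Cd209a in 11.6% and 83.6%, as the division sets. Lsp1 was 4.52 per 10000 on the monocyte side (exact 95% Poisson interval 3.43 to 5.85) and 10.5 on the dendritic side (8.79 to 12.4). The dendritic side was higher in each library in which the sides could be measured, at 5.83 and 14.7 in library 2, 4.91 and 9.52 in library 3, and 3.31 and 11.1 in library 5. Vim was 15.4 and 18.6 with no common direction over those libraries, and Tmsb10 was 5.61 and 5.46. Actb was 111 and 101, lower on the dendritic side in all 3 libraries. These are descriptions of the cells at hand without a test, intervals cover counting error only, and the sides had medians of 1459 and 2301 UMIs.

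**Figure D4:**
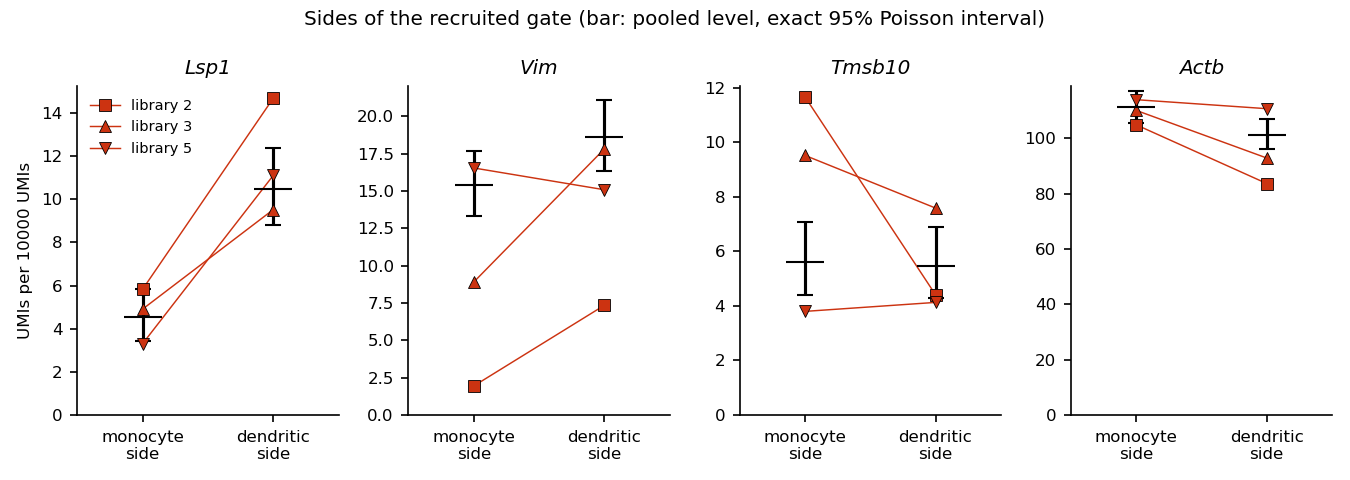
UMIs per 10000 (vertical axis, from 0) of 4 genes on the monocyte side (69 cells) and the dendritic side (55 cells) of the recruited gate. Lines join the sides within libraries 2, 3 and 5, and bars are the pooled level with its exact 95% Poisson interval. Lsp1 rises from 4.52 to 10.5 in pooled cells and in each of the 3 libraries.

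Neutrophils, which were 30 cells in all and reached 5 cells in libraries 2, 4 and 5, had more of most members. Actb stood at 154, 129 and 193 per 10000 and Tmsb4x at 134, 126 and 111, above the microglia of the same library in each case. Of 9 members tested, 6 were called higher than in microglia and 0 lower, where 29.1% of all genes were called and 12.7% called higher. Vim stood at 6.64, 0 and 12.96, overlapping the values of microglia, with no UMI in the 6 cells of library 4 and a ratio of the means of 3.09. The log2 fold change was 3.42 (SE 0.68, edgeR adjusted p = 0.000176) for Vim, which was 2.38 (adjusted p = 0.155) without the library block, 2.83 for Lsp1, 2.52 for Cotl1, 1.46 (SE 0.37, adjusted p = 0.00252) for Actb, and 1.23 for both Tmsb4x and Lcp1. Cotl1 stood at 32.3, 2.86 and 11.7, so library 2 set its mean. The median of all genes was -0.95 in this comparison, and 0 members were called when genes with low counts were kept or when library 5 was left out. Without library 2 or without library 3 there was 1. Without library 2, Lcp1 was at -0.078, Cotl1 at 0.68 and Lsp1 at 0.77. DESeq2 called 8 of 9 members and 21.8% of all genes, so the number of members depended on the fit. Few cells and a median of 668.5 UMIs limit every value of this class.

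Microglia were divided within each library into an upper and a lower group of nearly equal size by the summed level of 8 activation genes. The median cell of the microglia had a level of 0 for this list. Cells without such a UMI were tied and ranked by their order alone, so that some of them fell in the upper group. The groups therefore do not fully part cells with activation genes from cells without. None of the 5 members tested was called, where 0.717% of 279 genes were called, and DESeq2 called 0 where it called 0.358% of genes. At an unadjusted p under 0.05 there was 1, Cfl1, at 12.1 ± 7.54 per 10000 in the upper group and 5.18 ± 2.59 in the lower (SD, n = 5), with a log2 fold change of 0.90 (SE 0.39, edgeR adjusted p = 0.929). It was 0.50 without library 1, where 1 cell held 21 of the 36 Cfl1 UMIs, and 0.12 at a minimum of 1000 UMIs per cell. Actb stood at 73.4 ± 11.2 and 67.1 ± 4.52, and Tmsb4x at 68.5 ± 9.21 and 75.0 ± 18.4. Vim stood at 1.35 ± 1.14 and 3.14 ± 3.53. The groups had medians of 1241 and 824 UMIs. A like division by MHC class II level gave 0 of 5 members called, also at an unadjusted p under 0.05 and by DESeq2, where each tool called 2.59% of 232 genes.

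Among 89 other cytoskeletal genes in the lists, 85 had a UMI and 19 were abundant enough to test. In recruited minus microglia 1 was called higher and 4 lower, or 5 of 19, where 35.7% of all genes were called, 12.7% higher and 23.0% lower. Marcks, a crosslinker under the membrane, was 21.8 ± 5.58 per 10000 in microglia and 6.84 ± 1.57 in recruited cells (SD, n = 5). It fell by 2.11 on the log2 scale (SE 0.28, edgeR adjusted p = 7.25e-08). It was called in all 16 alternatives.

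The WAVE complex drives the branching of actin under the membrane, and 2 of its subunits were lower in recruited cells. Cyfip1 stood at 3.53 ± 1.31 per 10000 in microglia and 0.91 ± 0.93 in recruited cells and fell by 1.96 (edgeR adjusted p = 0.0052). Nckap1l stood at 4.42 and 1.08 and fell by 1.70 (adjusted p = 0.0134), past the threshold in 8 of 15 alternatives. The capping gene Capza2 (log2 fold change -1.20) was called too (adjusted p = 0.0351), but passed the threshold in 3 of 15 alternatives and turned to 0.053 at a minimum of 1000 UMIs per cell. Zyx, which encodes the focal adhesion protein zyxin, was the gene called higher, at 0.88 ± 0.72 in microglia and 4.13 ± 1.34 in recruited cells (log2 fold change 1.52, adjusted p = 0.0464). It passed in 10 of 16 alternatives, and was 0.97 (adjusted p = 0.367) after each cell was thinned to 500 UMIs. Without library 3 the 5 calls became 1, and without library 5 they also became 1, while the fold changes were larger in size: without library 3 and without library 5, Nckap1l was at -2.39 and -2.64, Capza2 at -1.97 and -2.25, and Zyx at 1.95 and 1.87. Cyfip1 was at -2.53 (adjusted p = 0.193) without library 5 and did not pass the filter on low counts without library 3. Nckap1l also lost its call without library 2, at -1.07, and Capza2 without library 1 and without library 4, at -0.74 and -0.57.

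None of the 5 genes of the Arp2/3 complex tested, which nucleates branched filaments, was called in that comparison. Arpc2 stood at 5.57 ± 1.66 per 10000 in microglia and 10.3 ± 4.53 in recruited cells, Actr3 at 2.05 and 3.88, and Actr2 at 3.76 and 3.88. None of 4 myosin and tropomyosin genes was called, with Tpm4 at 0.86 and 2.60, Tpm3 at 4.82 and 3.54, and Myl12a at 2.13 and 4.79. Hcls1, Capzb, Msn, Tln1 and Tuba1b did not pass. Lists of other monomer-binding and other intermediate filament genes had no gene abundant enough to test. The median of the 19 genes was -0.40 and that of all genes -0.03. In the other comparisons 0 of 19 were called in border minus microglia, 1 lower (Marcks) in recruited minus border, and 3 higher (Arpc2, Arpc5 and Zyx) and 2 lower (Marcks and Capza2) in neutrophil minus microglia, where 6.72%, 17.6% and 29.1% of all genes were called.

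**Figure D5:**
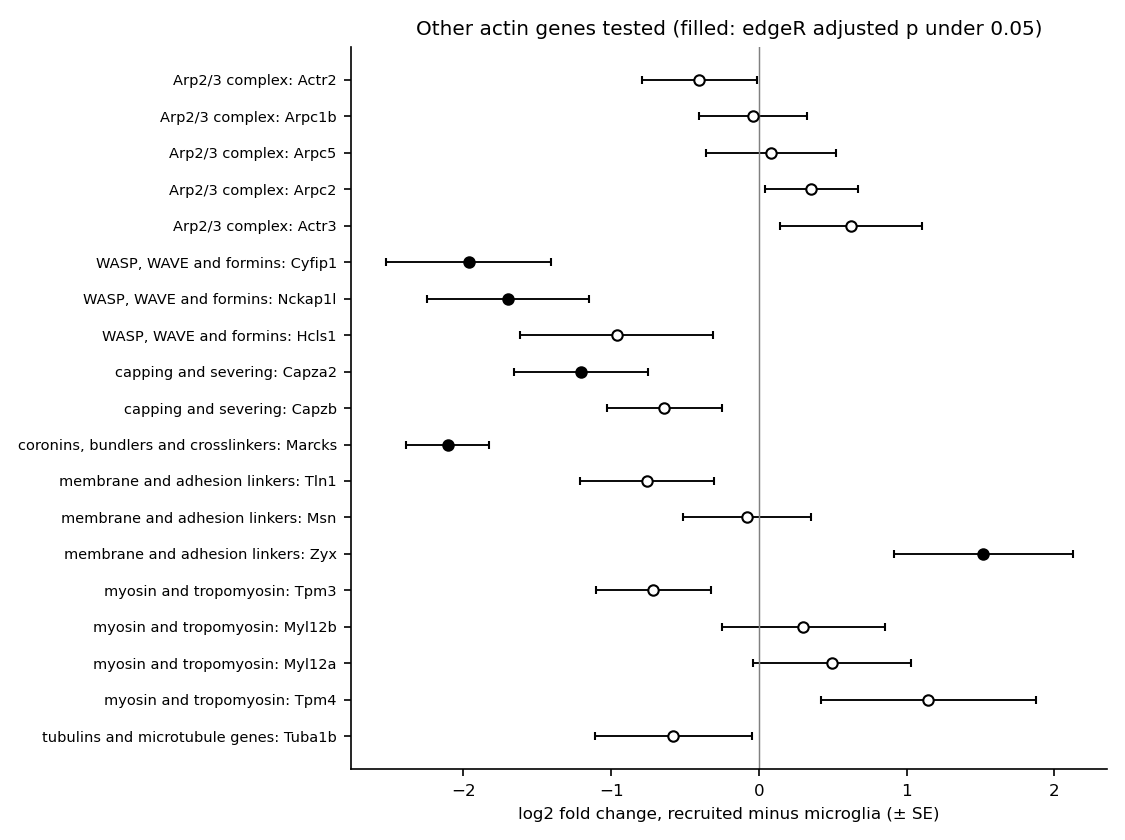
edgeR log2 fold change of recruited minus microglia (horizontal axis) with its SE for the 19 other cytoskeletal genes tested, ordered by list. Filled points passed an adjusted p of 0.05: Zyx to the right at 1.52, and Marcks at -2.11 with 3 more to the left.

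Genes of most similar level were sought over the 15 class and library sums, among 221 genes with a mean of at least 5 per 10000. For Actb the highest Pearson r, on log2(UMIs per 10000 + 1), was 0.87 with S100a6, followed by Mmp8, Ltf and Ngp at 0.81, 0.80 and 0.76 and Tmsb4x at 0.76. Mmp8, Ltf and Ngp are neutrophil gate genes, and the 3 neutrophil sums were the highest in Actb but for the 131 of recruited cells in library 4. For Vim the list was Cd52 at 0.76, Rplp0 and Rpl8 at 0.70, Coro1a at 0.68 and Gpx1 at 0.64. Actb and Vim had r = 0.25 with each other. The sums share libraries and classes and differ in depth, so these values describe likeness and carry no p.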

How the data were processed

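Single cells from brains of DM-hTAU mice were sorted into 5 plates and read by MARS-seq. The deposited tables hold UMI counts per gene and well, which the authors made by demultiplexing (bcl2fastq 2.15.0.4 in the submitters' processing notes), mapping to mm10 and collapsing reads by UMI. The aligner, the annotation and the treatment of reads with several matches are not given in the sources used here. In all, the tables list 52634 rows, of which 92 are ERCC spike-ins that held 3 UMIs in all and were left out. Doublets were excluded in the sort, and no doublet caller was run.

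Wells with 1 cell and at least 500 UMIs were kept. Neutrophils had at least 500 neutrophil-list UMIs per 10000. Microglia had at least 5 UMIs from at least 2 microglial genes, and the border and recruited lists together at most 1 UMI for each 5 of these. Border macrophages and recruited cells had at least 3 UMIs from at least 2 genes of their list. These were more than from the microglial list, and more than from the recruited or the border list, respectively. Their list was not compared with the neutrophil list. Counts were summed per library and class where at least 5 cells were present, and sums were tested with edgeR 4.0.16 (R 4.3.3, quasi-likelihood test, TMM, robust, library as a block because its classes come from 1 plate, the 4 classes in 1 fit). P-values were adjusted by Benjamini-Hochberg over all genes tested, with a threshold of 0.05. SE values were derived from the fold change and its F statistic and are approximate. DESeq2 1.42.0, other filters, gates, scalings, thinning and leaving out each library served as alternatives, and thinned sums for the tests were added after the data were seen. Poisson intervals are exact, at 95%. The test was also tried on simulated counts with known changes in abundant genes and no library effect. Its outcome is not given here and does not bear on members with few counts.

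Named were all 10 members, up to 3 genes of each pathway list reported by smallest adjusted p in recruited minus microglia, and the 5 genes most like Actb and Vim. The members and lists were chosen with earlier results of these data known. A further list is not reported here. Upstream sequences are from RefSeq (GRCm38.p6) and gene positions from GENCODE on GRCm38.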

Additional observations from a re-analysis of the deposited data

Results flagged for a closer look

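Vim in recruited cells of library 1 stood at 89.3 UMIs per 10000, apart from the 5.02 to 15.8 of the other libraries, with a gap of 0.872 of the whole range. It came from 7 cells, of which 1 held 41 of 73 UMIs. Among 22 groups of values examined for such gaps it was the 1 that exceeded the critical value, and chance gives about 1 in 20. Without library 1 the log2 fold change of recruited minus microglia in Vim was 2.92, still past the threshold.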

How the results depend on the processing

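Counts of called genes kept within 1.5 times their value in 123 of 156 pairs of a result and a setting and moved in 33. The 123 include counts of 0 that stayed 0. Members called in border minus microglia and in both divisions of microglia were 0 under every setting. Members called in recruited minus microglia were 3, and 5 without TMM. In recruited minus border they were 4, and 2 after thinning each cell to 500 UMIs. In neutrophil minus microglia they were 6, and 0 with no filter on low counts, 2 at 300 UMIs per cell and 2 with at least 10 cells per sum. The other cytoskeletal genes called in border minus microglia were 0, and 3 at 1000 UMIs per cell and 1 with only the 2 classes compared. In recruited minus microglia they were 5, and 2 with no filter, 8 at 1000 UMIs, 1 with the gate minimum doubled and 3 after thinning. In recruited minus border they were 1, and 0 with no filter, at 300 UMIs or with at least 10 cells, 8 at 1000 UMIs, and 2 with the gate minimum doubled or with only the 2 classes. In neutrophil minus microglia they were 5, and 8 by DESeq2, 13 at 300 UMIs, 0 with at least 10 cells, 2 with only the 2 classes and 2 after thinning.

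Leaving out each library in turn gave 2 to 4 members in recruited minus microglia, 0 to 4 in recruited minus border, 0 to 6 in neutrophil minus microglia and 0 in each of the others. The other cytoskeletal genes called ranged from 1 to 7, 0 to 1 and 1 to 7 in the same order. Log2 fold changes ranged from -0.12 to 0.28 for Actb and from -0.051 to 0.30 for Tmsb4x in recruited minus microglia, and from -0.078 to 1.33 for Lcp1 in neutrophil minus microglia. Other sign changes were Actb at -0.28 and Tmsb4x at -0.085 with the gate minimum doubled, Lcp1 at -0.0066 in neutrophils with no filter, and Capza2 at 0.053 at 1000 UMIs per cell. The cause of these shifts was not tested.

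Without the replicate block of libraries, members called were 3, 3 and 5 in recruited minus microglia, recruited minus border and neutrophil minus microglia. Leaving out the block lost 3 calls of named genes, Zyx at 1.52 (edgeR adjusted p = 0.0757) in recruited minus microglia, Vim at 2.75 in recruited minus border and Vim at 2.38 (adjusted p = 0.155) in neutrophil minus microglia, and it changed no other call of those printed. Of 27 further fold changes of members that were not called, 25 changed sign under at least 1 alternative. Apart from Cfl1 in recruited minus microglia, which kept its sign, these fold changes are not printed. Of these 27, 3 were called under at least 1: Lcp1 in recruited minus microglia after thinning at -1.01, and Cfl1 and Coro1a in neutrophils, at 1.48 and 1.45 by DESeq2 and 1.61 and 1.73 with the gate doubled. Levels moved by more than 1 SD in 7 cases: in border macrophages at 1000 UMIs, Actb 82.9, Coro1a 2.34 and Lsp1 0.50, in border macrophages after thinning, Cfl1 7.28, Coro1a 2.22 and Lsp1 0.80, and in microglia at 1000 UMIs, Tmsb10 0.68. Scaling by ERCC could not be run on 3 spike-in UMIs, and neutrophils could not be fitted at 1000 UMIs. UMIs per cell are given in the text for Actb. Low depth limits Pfn1, Tmsb10 and Lsp1 most.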
